A study of Mus musculus with 4 samples.

Results

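The 43 genes described here encode integrin subunits, laminin chains and the proteins that link laminins to the rest of the basement membrane or to the cell surface. They are the rows of a mouse ovary gene table of 21958 genes whose symbol is that of an integrin alpha subunit (18 genes), an integrin beta subunit (8), a laminin alpha (5), beta (3) or gamma chain (3), together with Nid1, Nid2, Hspg2, Agrn, Dag1 and Sparc (6 linkers). Membership rests on the symbol, not on any measured level. RNA was sequenced from ovaries of females in diestrus, a resting phase of the estrous cycle. The transgenic group, labelled ++Oxtr (genotype tg), overexpresses the oxytocin receptor and has 2 libraries, replicates 3 and 4. The wild-type group, labelled WT, has 2 libraries, replicates 5 and 6. The labels used here do not give the promoter of the transgene, the number of founder lines, the age of the animals, or whether a library is 1 animal or a pool. Library totals ran from 15229810 to 16517764 counts, and Oxtr itself stood at 23.2 and 32.9 FPKM in ++Oxtr against 6.21 and 11.5 FPKM in WT.

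Integrins are cell surface receptors, each an alpha subunit paired with a beta subunit, that tie the matrix outside the cell to the actin skeleton within it. Laminins are trimers of an alpha, a beta and a gamma chain that assemble into the sheet of every basement membrane. Nidogens and perlecan (Hspg2) join that sheet to collagen IV, agrin (Agrn) and dystroglycan (Dag1) anchor it at cells, and Sparc encodes a secreted collagen-binding protein. In the ovary a basement membrane encloses each follicle and separates granulosa cells from the theca. Others lie under vessel endothelium, the surface epithelium and smooth muscle.

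The libraries differed in the levels of cell type markers. Every listed marker of granulosa cells (7), oocytes (7) and steroidogenic cells (6) was detected in all 4 libraries, while the labels' extraction protocol names white adipose tissue. Summed FPKM of 8 adipocyte markers was 947 and 675 in ++Oxtr against 88.2 and 81.8 in WT. Summed FPKM of 7 oviduct epithelium markers was 16.2 in ++Oxtr replicate 3 against 810 in ++Oxtr replicate 4, 666 in WT replicate 5 and 258 in WT replicate 6. For 6 markers of steroidogenic cells the sum was 2913 in WT replicate 6 against 979 to 1077 in the other 3 libraries. For 6 T cell markers it was 17.9 in WT replicate 5 against 4.10 to 8.12. In counts scaled between libraries by TMM, 6 of 6 endothelial and 5 of 6 fibroblast markers were higher in both ++Oxtr libraries than in both WT libraries. So were 4 of 6 surface mesothelium and 4 of 4 red cell markers, and none in these lists was lower in both. Over all genes tested, 14.5% were higher in both. In whole tissue, fewer cells of a type and less RNA per cell cannot be told apart.

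Levels across these genes spanned a wide range, and the same few genes led in all 4 libraries. FPKM, the count divided by gene length and library total, allows levels to be set between genes. By mean FPKM over the 4 libraries, 20 members stood at 10 or more, 19 between 1 and 10, and 4 below 1. The median of the members was 8.63 FPKM, and that of all 15311 genes tested was 6.63 FPKM. Sparc (mean 550 FPKM), Itgb1 (159), Dag1 (108), Itgb5 (54.8), Nid1 (49.0) and Lamc1 (43.9) were the most abundant, and 42 of the 43 had at least 1 count in every library. Itgad, a leukocyte integrin subunit, was the exception, with 0 and 3 counts in ++Oxtr and 13 and 3 in WT.

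**Figure D1:**
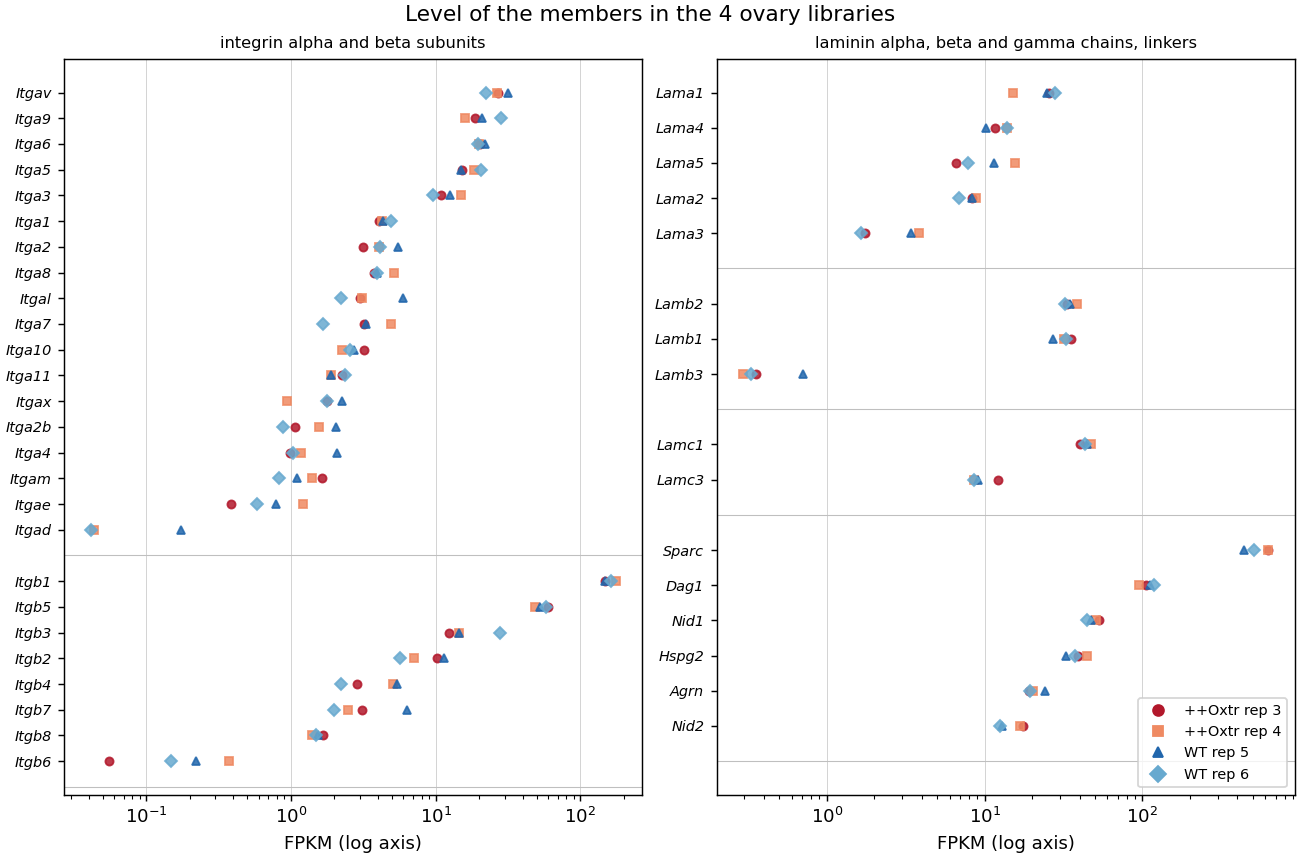
FPKM of the members (log axis) in the 4 libraries, grouped by subfamily and ordered by mean level, with 1 point per library. Sparc and Itgb1 lie at the top of their groups, Itgb6 spreads from 0.0554 to 0.376 FPKM, and the library in which Itgad had 0 counts is not drawn.

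Between genotypes, edgeR's quasi-likelihood test with Benjamini-Hochberg adjustment called 0 of the 42 members tested at the 0.05 threshold, and 0% of all genes. The filter on low counts left Itgad out. Log2 differences, ++Oxtr minus WT, ran from -0.66 (Itgb3) to 0.73 (Itga7), with a median of 0.03 against -0.0033 over all genes tested. They were above 0 for 23 members (54.8%), against 49.2% of all genes. In TMM-scaled counts, both ++Oxtr libraries stood above both WT libraries for 6 members (14.3%), against 14.5% of all genes, and below both for 4 (9.52%), against 11.7%. These shares lie near the background. At an unadjusted p under 0.05, edgeR gave 1 member, Nid2, higher in ++Oxtr, where 2.12% of all genes were higher and 0.451% lower at that level. DESeq2 called 0 members at an adjusted p of 0.05, where it called 0.414% of all genes, and gave 3 members, Nid2, Sparc and Itga9, at an unadjusted p under 0.05, against 2.69% of all genes. Limma-voom called 0 members and gave Nid2 alone at an unadjusted p under 0.05, against 2.7% of all genes. With ++Oxtr replicate 4 left out, DESeq2 called 1 member lower and 2.48% of all genes lower. The labels do not say whether replicates were separate animals, so the p-values speak to the scatter among 4 libraries, and that scatter may be technical.

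The width of the intervals says how large a difference each member's values leave room for before adjustment. The 95% interval of the log2 difference lay within -1 and 1, a 2-fold difference either way, for 23 of the 42 members (54.8%), against 61.8% of all genes. For 12 of them, Itgav, Itga6, Itga1, Itgb1, Itgb5, Lama2, Lamb1, Lamb2, Lamc1, Dag1, Nid1 and Agrn, it lay within 1.5-fold either way. For the other 19 the interval reached beyond 2-fold. In 14 of these it was wider than 2 log2 units, so that a 2-fold difference could have gone undetected even before adjustment. After adjustment edgeR called no gene, with a smallest adjusted p of 0.177. A 2-fold difference could therefore have been missed in other members too. The interval was widest for Itgb6 (-2.42 to 2.93), whose level ran 6.79-fold between the ++Oxtr libraries alone.

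**Figure D2:**
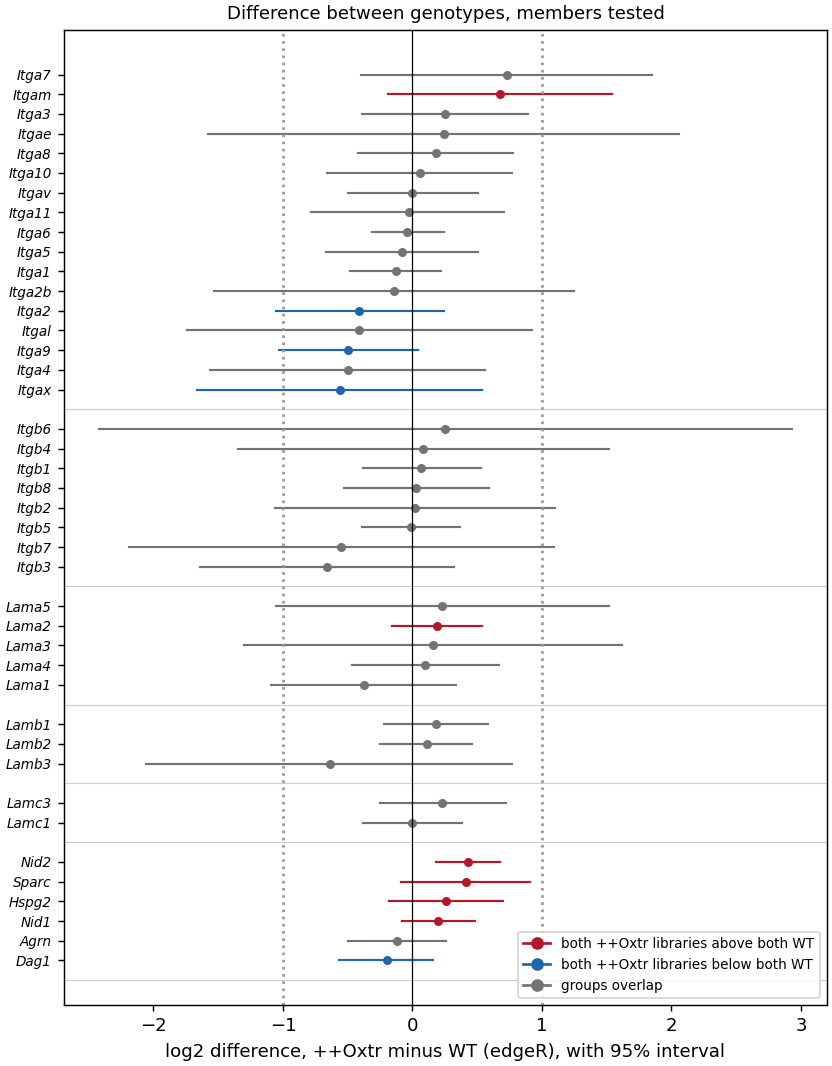
Log2 difference between ++Oxtr and WT for the members tested, with 95% intervals from edgeR (2 libraries per group); dotted lines mark 2-fold. Red marks the 6 members higher in both ++Oxtr libraries and blue the 4 lower in both, and the interval of Nid2 (0.18 to 0.68) is the one that leaves out 0 before adjustment.

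Among the linkers, 4 of the 6 stood higher in both ++Oxtr libraries, Nid2, Nid1, Hspg2 and Sparc, and Dag1 stood lower in both. Over all genes tested 14.5% stood higher in both and 11.7% lower, and over all members tested 14.3% and 9.52%. None of the linkers' differences passed the threshold over all genes. Nid2 encodes nidogen 2, which bridges laminin and collagen IV, and lies on chromosome 14 from 19801333 to 19861855 in the deposited table. Its level was 17.4 and 16.7 FPKM in ++Oxtr replicates 3 and 4, and 12.9 and 12.5 FPKM in WT replicates 5 and 6. The replicates of each group lay within 1.04-fold of each other, and the groups did not overlap. The group means were 17 ± 0.518 and 12.7 ± 0.292 FPKM (SD, n = 2 each), a ratio of 1.34. EdgeR put the log2 difference at 0.43 ± 0.09 (SE). Its p was 0.00814 before and 1 after Benjamini-Hochberg adjustment over all genes in the quasi-likelihood test. It was 0.43 or 0.44 with any library left out. Nid2 overlaps Rtraf by 437 bases on the opposite strand, and the strand setting of the counting is not given in the sources used here. Rtraf itself was at 52.3 and 55.4 against 56.7 and 55.1 FPKM.

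Nid1, the nidogen of the same function with the higher level in all 4 libraries, was at 53.3 and 51.0 FPKM in ++Oxtr and 47.3 and 44.3 FPKM in WT. The groups did not overlap, and the log2 difference was 0.20 ± 0.10 (SE; adjusted p = 1, edgeR). Nid2 made up 24.6% of the summed nidogen FPKM in each ++Oxtr library, and 21.5% and 22.0% in the WT libraries. That difference in share was not tested. Hspg2, the gene of the heparan sulfate proteoglycan perlecan, was at 39.0 and 44.3 against 32.7 and 37.6 FPKM, with a log2 difference of 0.26 ± 0.16 (adjusted p = 1, edgeR). It was 0.13 without ++Oxtr replicate 4 and 0.14 without WT replicate 5.

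Sparc, the most abundant member, was at 624 and 628 FPKM in ++Oxtr and 441 and 509 FPKM in WT. Both ++Oxtr libraries lay above both WT libraries, with a ratio of group means of 1.32. The log2 difference was 0.41 ± 0.19 (SE; adjusted p = 1, edgeR). DESeq2 gave Sparc an adjusted p of 0.869. Left out in turn, the libraries moved its log2 difference between 0.28 without WT replicate 5 and 0.54 without WT replicate 6. Fibroblasts, endothelium and fat cells are among the cells that make Sparc. The summed markers of fibroblasts were 1142 and 1277 against 829 and 584 FPKM, those of endothelium 94.0 and 87.3 against 73.1 and 71.9, and those of adipocytes as given above. Not every list ran that way. Pericyte and smooth muscle markers summed to 667 and 1446 against 1155 and 874 FPKM, with 0 of 8 higher in both ++Oxtr libraries. The part of any of these cells in the linkers' levels was not tested.

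Dag1, which encodes both parts of the laminin receptor dystroglycan, was at 105 and 94.5 FPKM in ++Oxtr and 112 and 119 FPKM in WT. The groups did not overlap and the log2 difference was -0.20 ± 0.14 (SE; adjusted p = 1, edgeR), and -0.13 without WT replicate 6. Agrn, whose product binds laminin and dystroglycan, was at 19.0 and 20.4 against 24.0 and 19.3 FPKM, so that the groups overlapped.

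The promoters of the 3 linkers with a RefSeq entry among the 4 that stood higher in ++Oxtr are shown so that their makeup can be compared. RefSeq promoters on GRCm38.p6 matched 28 of the 43 members. Each line gives the 250 bases before the start site, 5′ to 3′ on the gene's strand, with GC boxes (GGGCGG on either strand) in capitals. Their positions are chr11:55420081-55420330 on the minus strand for Sparc, chr13:13437352-13437601 on the plus strand for Nid1 and chr4:137468553-137468802 on the plus strand for Hspg2.
Sparc: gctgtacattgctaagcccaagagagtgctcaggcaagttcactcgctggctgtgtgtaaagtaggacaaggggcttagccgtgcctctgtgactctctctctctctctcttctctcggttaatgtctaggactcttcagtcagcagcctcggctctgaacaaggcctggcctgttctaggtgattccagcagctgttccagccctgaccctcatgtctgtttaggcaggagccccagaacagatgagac
Nid1: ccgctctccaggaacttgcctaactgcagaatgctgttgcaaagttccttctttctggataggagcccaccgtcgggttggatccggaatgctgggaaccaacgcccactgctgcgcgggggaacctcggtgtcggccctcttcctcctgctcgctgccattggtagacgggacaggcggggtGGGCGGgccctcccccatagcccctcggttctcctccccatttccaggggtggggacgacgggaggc
Hspg2: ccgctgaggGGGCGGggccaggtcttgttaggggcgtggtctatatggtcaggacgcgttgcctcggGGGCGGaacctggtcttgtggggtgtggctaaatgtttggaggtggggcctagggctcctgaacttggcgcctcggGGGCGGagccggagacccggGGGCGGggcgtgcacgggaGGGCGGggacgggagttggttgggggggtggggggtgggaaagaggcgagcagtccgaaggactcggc
Hspg2 held 5 GC boxes and 70.0% G and C, Nid1 held 1 and 64.4%, and Sparc held 0 and 54.0%. Of all 32851 promoters in the table, 32.7% held a GC box in the same window, as did 15 of the 33 promoters of members. The 3 shown held no TATAAA, no AP-1 motif (TGANTCA) and no AAGGTCA, a motif bound by NR5A receptors, on either strand. Those letters were in 12.4%, 6.75% and 4.08% of all promoters, in 0, 1 and 0 of the 33. A match of letters is a description of the window and not a bound site.

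Laminin alpha chains set where a laminin trimer binds. Summed over the 5 genes, the level was 53.9 and 57.3 FPKM in ++Oxtr and 58.4 and 58.2 FPKM in WT. Lama1, a chain of early and epithelial basement membranes, was at 25.5 FPKM in ++Oxtr replicate 3, 15.2 in ++Oxtr replicate 4, and 25.0 and 27.9 FPKM in WT. It led the alpha chains in 3 libraries, with 42.8% to 48.0% of their sum, and held 26.5% in ++Oxtr replicate 4. The log2 difference was -0.37 ± 0.26 (SE; adjusted p = 1, edgeR), -0.07 without ++Oxtr replicate 4 and -0.76 without ++Oxtr replicate 3.

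Lama5, the alpha chain of many adult epithelia and vessels, led narrowly in that library. It was at 6.61 and 15.6 FPKM in ++Oxtr and 11.4 and 7.86 FPKM in WT, so that the ++Oxtr libraries enclosed both WT libraries. The ratio of Lama1 to Lama5 was 3.86 and 0.972 in ++Oxtr and 2.19 and 3.56 in WT. Lama4, the chain of vessel walls, was at 11.7 and 13.8 against 10.2 and 13.8 FPKM, and Lama2, a chain of muscle, nerve and stroma, at 8.35 and 8.84 against 8.35 and 6.88. Lama2 stood higher in both ++Oxtr libraries once scaled by TMM, with a log2 difference of 0.19 and an interval of -0.16 to 0.54. As deposited, ++Oxtr replicate 3 and WT replicate 5 were level to 3 digits.

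Among the beta chains, Lamb1 was at 35.4 and 32.0 FPKM in ++Oxtr and 27.2 and 32.7 in WT, and Lamb2 at 33.2 and 38.4 against 34.8 and 32.3. Their ratio, Lamb1 to Lamb2, was 1.07 and 0.833 in ++Oxtr and 0.783 and 1.01 in WT, so neither chain led in all libraries. Lamb3 was under 1% of the summed beta chains in 3 libraries and 1.12% in WT replicate 5. The gamma chain Lamc1, which most laminin trimers contain, was at 40.2 and 47.1 FPKM in ++Oxtr and 44.6 and 43.6 FPKM in WT. Its log2 difference was 0.00 ± 0.14 (SE; adjusted p = 1, edgeR), with an interval of -0.38 to 0.38. It held 73.3% to 77.3% of the summed gamma chains. Lamc3 was highest in ++Oxtr replicate 3, at 12.1 FPKM against 8.60 to 9.10 in the other libraries.

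**Figure D3:**
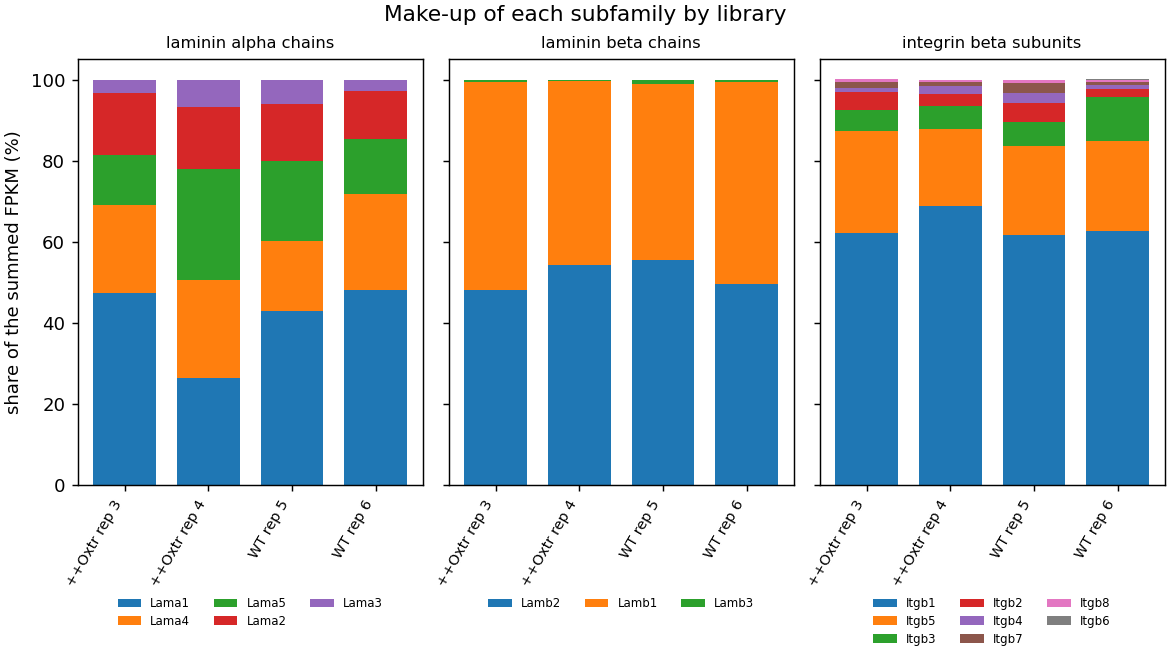
Share of the summed FPKM of laminin alpha and beta chains and of integrin beta subunits held by each gene, as stacked bars for each of the 4 libraries. Lama1 takes 26.5% in ++Oxtr replicate 4 and over 40% elsewhere, and Itgb1 takes 61.7% to 68.8% throughout.

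Several members of epithelial basement membranes varied by library. Itgb4, a laminin-binding beta subunit of hemidesmosomes, was at 2.85 and 5.07 FPKM in ++Oxtr and 5.39 and 2.23 in WT. Lama3, an alpha chain of epithelial anchoring sites, was at 1.74 and 3.82 against 3.40 and 1.66 FPKM, and Itgb6, an epithelial partner of Itgav, at 0.0554 and 0.376 against 0.221 and 0.148. For each of them, and for Lama5, ++Oxtr replicate 4 and WT replicate 5 were the high libraries, and in each the groups overlapped. Lamb3, a beta chain of epithelia, was high in WT replicate 5 alone, at 0.705 FPKM against 0.296 to 0.357. It overlaps G0s2 and Hsd11b1 on the opposite strand, so its few reads are uncertain.

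The oviduct markers followed the same order of libraries as Itgb6, at 810, 666, 258 and 16.2 FPKM in ++Oxtr replicate 4, WT replicates 5 and 6, and ++Oxtr replicate 3. Itgb6 rested on 41, 26, 17 and 6 counts in those libraries, so few that its exact order is uncertain. Of the oviduct markers, Ovgp1, the oviduct glycoprotein, was at 707, 564, 162 and 4.52 FPKM and made up most of the sum outside ++Oxtr replicate 3. Of the 7 markers 6 were lowest in ++Oxtr replicate 3, but 2 followed the whole order, and none was at 0. Smooth muscle and pericyte markers, which the muscle of the oviduct shares with ovarian vessels, summed to 1446, 1155, 874 and 667. Lama3 and Itgb4 were lowest in WT replicate 6, at 1.66 and 2.23 FPKM, not in ++Oxtr replicate 3 as the oviduct markers were. The part of oviduct and muscle cells in the levels of Itgb6, Lama3, Lama5 and Itgb4 was not tested.

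**Figure D4:**
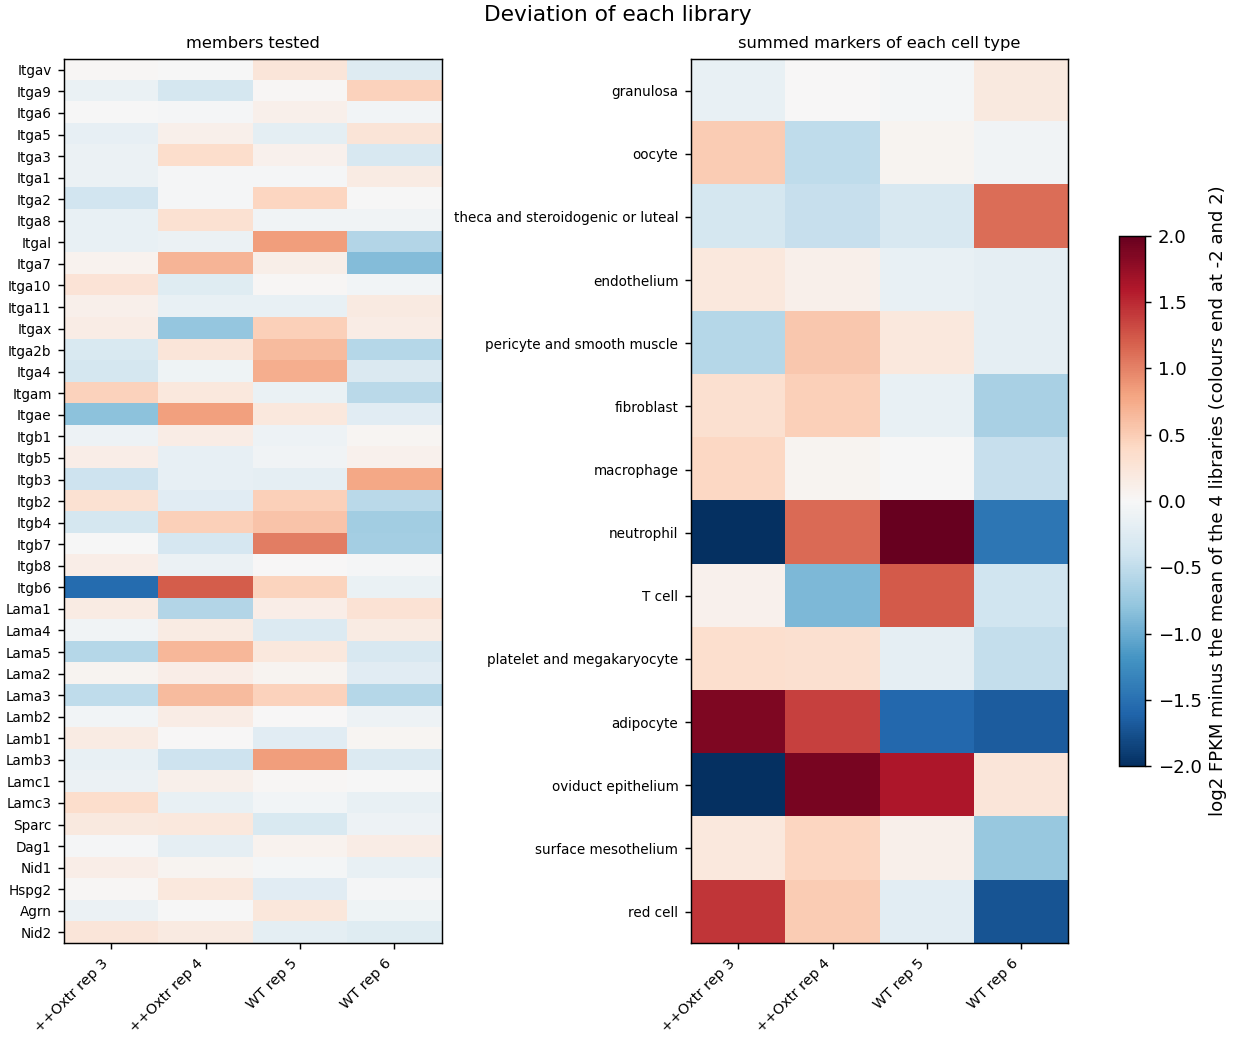
Log2 FPKM of the members tested (left) and of the summed markers of 14 cell types (right), as the deviation of each library from its 4-library mean. Itgb6 is lowest in ++Oxtr replicate 3, as the summed oviduct markers are. Itgb3 and Itga9 are highest in WT replicate 6, as the summed steroidogenic markers are. Itgb7, Itgal and Itga4 are highest in WT replicate 5, as the summed T cell markers are. Of all members, Itgad included, 12 were lowest in ++Oxtr replicate 3. WT replicate 6 was the highest library for 8 members and WT replicate 5 for 13. The part of these cells in the members' levels was not tested.

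Integrin beta subunits were led by Itgb1, the partner of most alpha subunits. Itgb1 was at 148 and 176 FPKM in ++Oxtr and 148 and 163 FPKM in WT, with a log2 difference of 0.07 ± 0.17 (SE; adjusted p = 1, edgeR) and an interval of -0.38 to 0.53. Itgb5, a partner of Itgav in binding vitronectin, was at 60.1 and 48.9 against 52.3 and 57.9 FPKM. The groups overlapped for both genes. Itgb1 held 61.7% to 68.8% of the summed beta subunit level and Itgb5 19.1% to 25.2%. Itgb8, which with Itgav releases active TGF-beta, was at 1.68 and 1.40 against 1.53 and 1.5 FPKM.

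Itgb3, the beta subunit of the platelet fibrinogen receptor and a partner of Itgav on vessel and other cells, was at 12.3 and 14.6 FPKM in ++Oxtr and at 14.5 and 28.0 FPKM in WT. WT replicate 6 stood alone, and WT replicate 5 lay within the ++Oxtr range. The log2 difference was -0.66 ± 0.36 (SE; adjusted p = 1, edgeR), -0.08 without WT replicate 6 and -1.07 without WT replicate 5. In DESeq2 without WT replicate 5 it was called lower in ++Oxtr, with an adjusted p of 0.0449, where 0.452% of all genes were called lower. That fit sets WT replicate 6 alone against the ++Oxtr pair, and the lone library is assumed to vary as that pair does. Of 6 platelet and megakaryocyte markers, Gp1bb and Gp6 were at 0 counts in every library and Gp9 and Ppbp were at 0 in 1 library each. The list summed to 14.2 and 14.1 against 9.95 and 8.11 FPKM, nearly all of it Pf4. With the other markers at or near 0, it is a weak gauge of platelets. The part of platelets in the level of Itgb3 was not tested. Itga2b, the alpha subunit that joins Itgb3 on platelets, was at 1.06 and 1.56 against 2.04 and 0.888 FPKM.

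Itga9, an alpha subunit that pairs with Itgb1 and binds tenascin C and osteopontin, was at 18.8 and 16.1 FPKM in ++Oxtr and 20.9 and 28.5 FPKM in WT. Both ++Oxtr libraries lay below both WT libraries, with means of 17.4 ± 1.90 and 24.7 ± 5.33 FPKM (SD, n = 2 each). The log2 difference was -0.50 ± 0.20 (SE; adjusted p = 1, edgeR), with an interval of -1.03 to 0.04. It moved to -0.23 without WT replicate 6 and to -0.72 without WT replicate 5. Tnc, the gene of tenascin C, was at 12.3 and 7.32 against 12.7 and 39.4 FPKM, again highest in WT replicate 6, with an adjusted p of 1 in edgeR. Spp1, the gene of osteopontin, did not share that order. It was at 16.6 and 3.56 against 5.55 and 16.1 FPKM, highest in ++Oxtr replicate 3. WT replicate 6 held the highest steroidogenic markers, with Cyp11a1, which starts steroid synthesis, at 733 FPKM against 53.6 to 117. Their part in the levels of Itgb3 and Itga9 was not tested.

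Alpha subunits that bind the RGD motif of fibronectin and vitronectin were led by Itgav. Itgav was at 27.1 and 26.7 FPKM in ++Oxtr and 31.8 and 22.4 FPKM in WT, the WT libraries enclosing both ++Oxtr libraries, with an interval of the log2 difference of -0.50 to 0.51. Itga5, the main fibronectin receptor subunit, was at 15.3 and 18.4 against 15.1 and 20.7 FPKM, and Itga8, a nephronectin receptor subunit, at 3.74 and 5.12 against 3.96 and 3.96. The 4 RGD-binding subunits summed to 47.2 and 51.8 FPKM in ++Oxtr and 53.0 and 48.0 FPKM in WT, which overlap.

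Laminin-binding alpha subunits were Itga6, Itga3 and Itga7, in falling order of mean level. Itga6 varied least of all members between libraries, 1.11-fold from lowest to highest, at 20.2 and 20.0 FPKM in ++Oxtr and 21.8 and 19.7 FPKM in WT. Itga3 was at 10.9 and 15.1 against 12.6 and 9.54 FPKM. Itga7, the laminin receptor subunit of muscle, had the largest positive log2 difference of the members, 0.73 ± 0.42 (SE; adjusted p = 1, edgeR), with an interval of -0.40 to 1.85. It was at 3.20 and 4.89 FPKM in ++Oxtr and 3.30 and 1.68 FPKM in WT, so that WT replicate 5 lay inside the ++Oxtr range. Its log2 difference was 0.33 without WT replicate 6, 0.36 without ++Oxtr replicate 4 and 1.26 without WT replicate 5.

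Collagen-binding alpha subunits were low in level. Summed over Itga1, Itga2, Itga10 and Itga11 they were at 12.6 and 12.4 FPKM in ++Oxtr and 14.4 and 13.9 FPKM in WT, without overlap. Itga2, a collagen receptor subunit of epithelium and platelets, was lower in both ++Oxtr libraries, at 3.15 and 4.04 against 5.53 and 4.12 FPKM, with an interval of the log2 difference of -1.05 to 0.24. Itga1, found on smooth muscle and vessels, was at 4.04 and 4.29 against 4.31 and 4.89 FPKM. Once scaled by TMM its groups overlapped. Itga10 and Itga11, subunits of cartilage and of fibroblasts, stayed between 1.88 and 3.20 FPKM.

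Leukocyte integrins varied by library, and among them Itgb2 had the highest mean, 8.63 FPKM. Itgb2, the beta subunit of Itgal, Itgam, Itgax and Itgad, was at 10.2 and 7.08 FPKM in ++Oxtr and 11.5 and 5.68 FPKM in WT. Itgb7, the beta subunit of gut-homing lymphocytes, was at 3.11 and 2.50 against 6.36 and 1.97 FPKM. Its partner Itga4 was at 0.982 and 1.18 against 2.07 and 1.03. The lymphocyte subunit Itgal was at 3.0 and 3.08 against 5.97 and 2.23 FPKM. WT replicate 5 was the high library for all 4, and it was the high library for the summed T cell and neutrophil markers (17.9 and 95.6 FPKM). Of all members, Itgad included, 13 were highest in that library. Itgae, of T cells within epithelia, was highest in ++Oxtr replicate 4 instead, at 1.21 FPKM, but it overlaps Haspin on the opposite strand. The part of T cells and neutrophils in the levels of these leukocyte integrins was not tested.

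Itgam, the myeloid subunit of macrophages and neutrophils, was higher in both ++Oxtr libraries, at 1.65 and 1.40 against 1.10 and 0.828 FPKM. Its log2 difference was 0.68 ± 0.32 (SE; adjusted p = 1, edgeR), from 67 to 126 counts a library. Itgam overlaps Gm49368 by 55809 bases on the same strand, so its level is uncertain. The 6 macrophage markers summed to 198 and 156 against 148 and 109 FPKM. Of the 6, 4 were higher in both ++Oxtr libraries in TMM-scaled counts, against 14.5% of all genes. The neutrophil markers did not follow Itgam, at 4.46 and 40.3 against 95.6 and 6.78. Itgax, of dendritic cells and macrophages, was at 1.78 and 0.938 against 2.24 and 1.77 FPKM. Its groups overlapped in FPKM, and after TMM scaling both ++Oxtr libraries lay lower. The part of these cells in either level was not tested.

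Genes that work with these members were read from 5 lists, with higher and lower again taken in TMM-scaled counts. Adhesion complex genes, which couple integrins to actin, had 0 of 23 members tested past the threshold in edgeR, 1 higher in both ++Oxtr libraries and 2 lower, and a median log2 difference of 0.07. The most abundant were the actin crosslinker Actn4, at 45 and 58.7 FPKM in ++Oxtr and 51.9 and 48.0 in WT, and the integrin activator Fermt2 (kindlin 2), at 49.6 and 47.8 against 45.8 and 44.1. Tln1, the gene of talin, was at 39.5 and 46.6 against 43.0 and 41.2 FPKM. Fermt1, the epithelial kindlin, repeated the order of libraries of Itgb6, at 0.334 and 4.70 against 4.58 and 2.73. Tln1, Fermt1, Tnc, Spp1 and Npnt are named here after their values were seen.

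Other basement membrane components had 0 of 22 tested past the threshold in edgeR, with 8 higher in both ++Oxtr libraries, 0 lower, and a median log2 difference of 0.26. DESeq2 called 1 of them, Col4a4, a collagen IV chain of specialised basement membranes. Col4a4 was at 12.3 and 12.1 FPKM in ++Oxtr and 7.83 and 7.64 FPKM in WT, with a log2 difference of 0.67 ± 0.09 (SE), an adjusted p of 0.0018 in DESeq2 and an adjusted p of 0.723 in edgeR. The major collagen IV chains Col4a1 and Col4a2 were at 121 and 133 against 106 and 133, and 81.2 and 82.1 against 69.3 and 85.7 FPKM, both with overlapping groups. Npnt, the nephronectin gene, was at 7.83 and 33.6 against 27.0 and 9.24 FPKM, in the same order of libraries as Itgb6.

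Other integrin ligands had 0 of 18 tested past the threshold in edgeR, with 6 higher in both ++Oxtr libraries, 2 lower, and a median of 0.21. Thbs1, a thrombospondin gene, was at 92.2 and 84.3 FPKM against 97.9 and 110, and Fn1, the gene of fibronectin, at 29.2 and 66.5 against 41.1 and 36.2. Other laminin receptors and dystroglycan complex genes had 0 of 17 past it, with 4 higher, 2 lower and a median of 0.11. Sdc4 was at 63.8 and 53.3 FPKM against 53.7 and 75.7, and Bcam, a receptor for Lama5 laminins, at 49.4 and 56.3 against 54.4 and 34.7. The enzymes that put the laminin-binding sugar on dystroglycan had 0 of 10 past it, with 3 higher, 1 lower and a median of -0.01. Pomgnt1, at 14.5 and 15 against 15.1 and 15.4 FPKM, and Pomt1, at 12.1 and 11.5 against 9.99 and 13.0, were the most abundant of these. Over all genes tested the median was -0.0033, with 14.5% higher in both ++Oxtr libraries and 11.7% lower.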

How the data were processed

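RNA was sequenced from 2 ++Oxtr and 2 WT ovary libraries. The deposited table gives, per the file headers, a read count (whole numbers, not normalised) and an FPKM for each of 21958 genes and each library. The FPKM values as deposited equal the count divided by the table's gene length and the library total. Per the submitters' processing notes the build was mm10. Which aligner, counter, strand setting and annotation were used is not given in the sources used here. None of the 43 members had the same start and end in GENCODE M21 (GRCm38), though all 43 had the same chromosome, so gene positions are the deposited table's and promoter positions are RefSeq's on GRCm38.p6.

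Groups and replicate numbers come from the sample titles. The main test was edgeR 4.0.16 (R 4.3.3), a quasi-likelihood fit on the counts with TMM scaling (factors 0.978 to 1.018) and filterByExpr with a minimum count of 10, adjusted by Benjamini-Hochberg over all 15311 genes tested. The intervals are 95% from that fit. Alternatives were DESeq2 1.42.0, limma-voom (limma 3.58.1), other scalings and filters, limma on log2(FPKM + 1) of genes averaging 1 FPKM or more, and each library left out. DESeq2 with each library left out was added after seeing the data. The main edgeR fit and the DESeq2 fit were run on simulated counts with known differences, and their median estimates were checked. The other alternatives were not run on them. Replicates differed beyond sampling noise, with a ratio of chi-square to its degrees of freedom of 43.1 in ++Oxtr and 41.4 in WT. Each library was taken as its own observation. Such scatter may be technical and does not show that the libraries are separate animals.

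Members and lists were chosen with earlier results of these data known, and no test was run over a list. The values of 1 member are not reported here. Values were given by library for members past a threshold, at an unadjusted p under 0.05, among the 3 most abundant of a subfamily, or with a mean of at least 1 FPKM and a 4-fold spread, and for most others after their values were seen. From each linked list the rule took called genes, and otherwise the 2 most abundant. A count of 0 allows up to 3 counts, 0.182 to 0.197 CPM, for counting error only.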

Additional observations from a re-analysis of the deposited data

How the results depend on the processing

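No alternative to the edgeR test, scaling or filter, and no library left out, gave an edgeR, limma or DESeq2 call among the members, except DESeq2 with a library left out, which called 1 lower without ++Oxtr replicate 4 and 1, Itgb3, lower without WT replicate 5. Among the linked lists DESeq2 called 1 gene in place of 0. The median log2 difference over members moved between -0.10 without ++Oxtr replicate 4 and 0.12 without WT replicate 5. Members higher in both ++Oxtr libraries numbered 11 to 18, and lower 9 to 14, with a library left out, since 3 libraries are separated more easily than 4. No share over all genes was taken for those settings, so these counts cannot be set against a background. Single log2 differences were followed with a library left out for some members only. Among these, direction turned for Itgb1 (-0.09 to 0.21) and Lama5 (-0.56 to 0.74). Lamc1 ran from -0.15 without ++Oxtr replicate 4 to 0.13 without ++Oxtr replicate 3. The mean summed FPKM of the linkers ran from 755 to 818, and the share of Sparc from 69.1% to 71.6%, with a library left out. No paired analysis was possible because the groups share no replicate number. With 2 libraries a group, 19 of the 42 intervals reach beyond 2-fold, and the low counts of Itgad, Itgb6 and Lamb3 limit those genes further.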

Other observations

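Ilk, the integrin-linked kinase that cells use throughout the body, had 1, 0, 1 and 1 counts in ++Oxtr replicates 3 and 4 and WT replicates 5 and 6. B4gat1, an enzyme of dystroglycan glycosylation, had 1, 1, 0 and 0. In the deposited table Ilk overlaps Taf10 by 3533 bases and Rrp8 by 794 bases on the opposite strand, and B4gat1 overlaps Gm50388 by 2241 bases on the same strand. Among members, Itgam overlaps Gm49368 by 55809 bases, Itga1 overlaps Gm49395 by 66649 bases and Pelo by 1832, and Itga10 overlaps Gm42957 by 7518, all on the same strand. Itga4 overlaps Cerkl by 2581 bases on the opposite strand. How reads over shared bases were counted was not tested, so the levels of these genes are uncertain.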
